A study of Mus musculus with 21 samples.

Results

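The Arp2/3 complex, the actin nucleator that starts a new filament as a branch on the side of an older one, is built from the products of 9 mouse genes considered here. Actr2 and Actr3 encode the actin-related proteins that form the first subunits of the new filament, Arpc2 and Arpc4 form the core that holds the complex together and binds the mother filament, Arpc3 is a small subunit that contacts Actr3, Arpc1a and Arpc1b encode alternative WD40-repeat subunits, and Arpc5 and Arpc5l encode alternative forms of the subunit that ties Arpc1 to the rest. The complex is inactive until WASP-family proteins bind it. In mouse oocytes, branched actin made by the complex is known for its role in holding the spindle beneath the cortex and in the asymmetric divisions that follow. The 9 genes were taken from the count table of 54232 genes by symbol. The complex was selected on the values of Arpc3 in these libraries, and the contrast that brought it up was not recorded, so the levels of Arpc3 are given as a description with no test. The other 8 subunits were included because they belong to the complex.

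The libraries were made from poly(A) RNA of fully grown germinal vesicle oocytes of mice on a C57BL/6 background, with 3 oocytes per library and 1 or 2 libraries per mouse. The mice were adult females and had been injected with equine chorionic gonadotropin or HyperOva. The study lowers Kif11, the plus-end-directed kinesin that pushes spindle poles apart. All mice carried at least 1 floxed Kif11 allele (fl), including those of the wt/fl group, which had 1 wild-type allele and no Cre (4 libraries). The wt/fl Spo11-Cre group (5 libraries) carried in addition a Cre active in early meiotic prophase. In the fl/del group (4 libraries) the second allele was a constitutive deletion, and in fl/del Spo11-Cre (4 libraries) the floxed allele was also exposed to Spo11-Cre. Both fl/fl groups carried floxed alleles only, with Gdf9-Cre or Zp3-Cre, which the study describes as oocyte-specific drivers (2 libraries each). The study's methods describe the 17 libraries of the first 4 groups, so for the 4 fl/fl libraries genotype, Cre driver and set of libraries cannot be told apart. Libraries of 1 mouse may be among the replicates, and p-values then measure the spread between libraries.

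Assigned reads ranged from 7205010 to 18454549 per library in the 17 libraries and from 7801470 to 10759741 in fl/fl. Kif11 was at 23.8 to 43.2 counts per 1000000 assigned reads (CPM) in wt/fl and 17.6 to 30.5 CPM in wt/fl Spo11-Cre. It was at 7.49 to 14.6 CPM in fl/del, 1.08 to 2.70 CPM in fl/del Spo11-Cre and 4.27 to 7.95 CPM in the fl/fl libraries. All 12 oocyte markers were detected, with a summed level of 23773 to 30586 CPM in the 17 libraries and 24026 to 30265 CPM in fl/fl. Markers of blood cells summed to at most 0.45 CPM in the 17 libraries, and all 8 were at 0 counts in fl/fl. Markers of follicle cells summed to 71.6 to 125 CPM in the 17 libraries and 82.9 to 124 CPM in fl/fl, most of it from Cyp19a1 and Nr5a2, while Foxl2, Wt1, Ptx3 and Tnfaip6 were at 0 counts in every library. The other follicle markers are given by their highest values, in sets of unequal size, and then by their means. Amhr2 and Inhbb, at 0 counts in all 17 libraries, reached 1.30 and 0.98 CPM in fl/fl. The highest values in the 17 libraries and in fl/fl were 2.50 and 5.39 CPM for Inha. They were 0.39 and 2.60 CPM for Hsd17b1 and 0.24 and 1.12 CPM for Amh. Each of these was at 0 CPM in at least 1 fl/fl library. Fshr, Has2 and Cyp19a1 also had their highest value in fl/fl. For Inhba, Fst, Ptgs2, Kitl and Nr5a2 the highest value was in the 17 libraries, at 1.07, 1.21, 0.79, 7.42 and 44.8 CPM. In fl/fl these reached 0.73, 0.37, 0.51, 5.67 and 35.9 CPM. Their means were close, at 0.22, 0.10, 0.13, 3.88 and 28.5 CPM in the 17 libraries. In fl/fl these means were 0.22, 0.09, 0.13, 3.69 and 28.9 CPM. Amh, Hsd17b1, Inha, Has2 and Fshr averaged 0.02, 0.05, 0.46, 0.21 and 0.72 CPM in the 17 libraries. In fl/fl they averaged more, at 0.28, 0.77, 1.41, 0.45 and 1.08 CPM. Cyp19a1 averaged 66.3 CPM in the 17 libraries and 65.3 CPM in fl/fl. The part of the follicle markers in the results was not tested. Stroma markers summed to 0.70 to 7.58 CPM in the 17 libraries and to 1.83 to 4.28 CPM in fl/fl.

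Arpc3 (ENSMUSG00000029465) spans 122391878 to 122414184 on the plus strand of chromosome 5 (GRCm38), and its main coding mRNA has 7 exons and 899 bases. The 250 bases before its annotated start are shown because Arpc3 was the subunit whose level differed most between libraries. The sequence was taken from RefSeq (GRCm38.p6, chr5:122391628-122391877, plus strand), and the capitals mark the letters CCGGAAGT, the core of binding sites of ETS factors.

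Arpc3: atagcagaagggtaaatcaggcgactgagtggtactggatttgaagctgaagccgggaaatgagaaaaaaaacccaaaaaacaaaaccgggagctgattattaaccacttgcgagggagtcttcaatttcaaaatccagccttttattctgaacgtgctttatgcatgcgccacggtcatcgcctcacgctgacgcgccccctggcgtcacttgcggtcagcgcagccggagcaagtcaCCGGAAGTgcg

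Promoter windows of 250 bases before to 50 bases after the start were held by RefSeq for 8 of the 9 members, and Arpc5l had no entry. On either strand, CCGGAAGT stood in 5 of these 8 windows (Arpc3, Arpc4, Arpc1a, Actr3 and Actr2), compared with 3.89% of all 32851 promoter windows. The letters were chosen after the Arpc3 window had been read, so this count is a description. Other forms of ETS sites were not counted. The last 30 bases before the start are shown for the 3 further members that carry the letters there, on the strand of the gene, with the same letters or their reverse complement in capitals. In Arpc3 the match began 11 bases before the RefSeq start, in Arpc4 12, in Actr3 8 and in Arpc1a 26 bases before it, and in Actr2 it lay after the start.
Arpc4 (chr6:113378083-113378112, plus strand): tacccgagatggtccagcCCGGAAGTgctg
Actr3 (chr1:125435728-125435757, minus strand): tgctcgctcctcccacccggaaCCGGAAGT
Arpc1a (chr5:145083839-145083868, plus strand): ggtcACTTCCGGgatctgtcagcctctccc

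None of the 8 windows held TATAAA or TAATTG, the core letters of the TATA box and of NOBOX sites, which stood in 13.6% and 8.0% of all windows. The E-box CACGTG stood in the window of Arpc5 and in 7.15% of all windows. The Arpc3 window had a G and C content of 52.7%, the lowest of the 8, whose other members ranged from 59.7% to 73.7%.

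Arpc3 was lowest in wt/fl oocytes, higher in most libraries of the Spo11-Cre and del groups, and several times higher in every fl/fl library. In wt/fl its level was 33.0, 31.6, 29.6 and 31.9 CPM, with a mean and SD of 31.5 ± 1.41 CPM over 4 libraries. With wt/fl Spo11-Cre it was 61.6, 57.9, 43.2, 38.7 and 61.4 CPM, or 167% of the wt/fl mean, and no library of this group overlapped wt/fl. The spread within wt/fl was the smallest of the 4 groups with 4 or 5 libraries.

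Oocytes of fl/del had 37.0, 31.1, 69.4 and 49.5 CPM of Arpc3, 148% of wt/fl, and their lowest library lay inside the wt/fl range. The highest value, 69.4 CPM, was in replicate 3, which was also the shallowest library at 7205010 counts. Without this library the fl/del mean was 124% of wt/fl. In fl/del Spo11-Cre the levels were 44.9, 54.7, 47.7 and 56.9 CPM, or 162% of wt/fl, and all were above the wt/fl range. These 3 comparisons share the wt/fl libraries.

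The fl/fl libraries stood apart from all others. The Gdf9-Cre libraries were at 255 and 259 CPM, or 815% of wt/fl. The Zp3-Cre libraries were at 198 and 146 CPM, or 545% of wt/fl. The lowest fl/fl library, at 146 CPM, was above the highest of the 17 others, at 69.4 CPM, and both Gdf9-Cre libraries were above both Zp3-Cre libraries. On the log2 scale of the edgeR fit, Arpc3 differed from wt/fl by 0.76 ± 0.15 (SE) in wt/fl Spo11-Cre, by 0.57 ± 0.16 in fl/del, by 0.69 ± 0.16 in fl/del Spo11-Cre and by 2.64 ± 0.16 in fl/fl with both drivers averaged. Against fl/del Spo11-Cre, the group with the lowest Kif11, the fl/fl libraries differed by 1.96 ± 0.15. The 4 fl/fl libraries had 7801470 to 10759741 counts, below all but 1 of the 17 others, and the part of depth in the level was not tested.

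Most libraries carry names that share a prefix with 1 other library of their group, and Arpc3 differed by 1.05-fold to 1.40-fold within such pairs. In wt/fl Spo11-Cre, replicates 1 and 2 averaged 59.8 CPM, replicates 3 and 4 averaged 40.9 CPM, and replicate 5 stood at 61.4 CPM. In fl/del, replicates 1 and 2 averaged 34.0 CPM and replicates 3 and 4 averaged 59.5 CPM. The level thus differed more between prefixes than within them in these 2 groups, while in fl/del Spo11-Cre the prefixes averaged 49.8 and 52.3 CPM. The labels do not say that a prefix is a mouse.

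**Figure D1:**
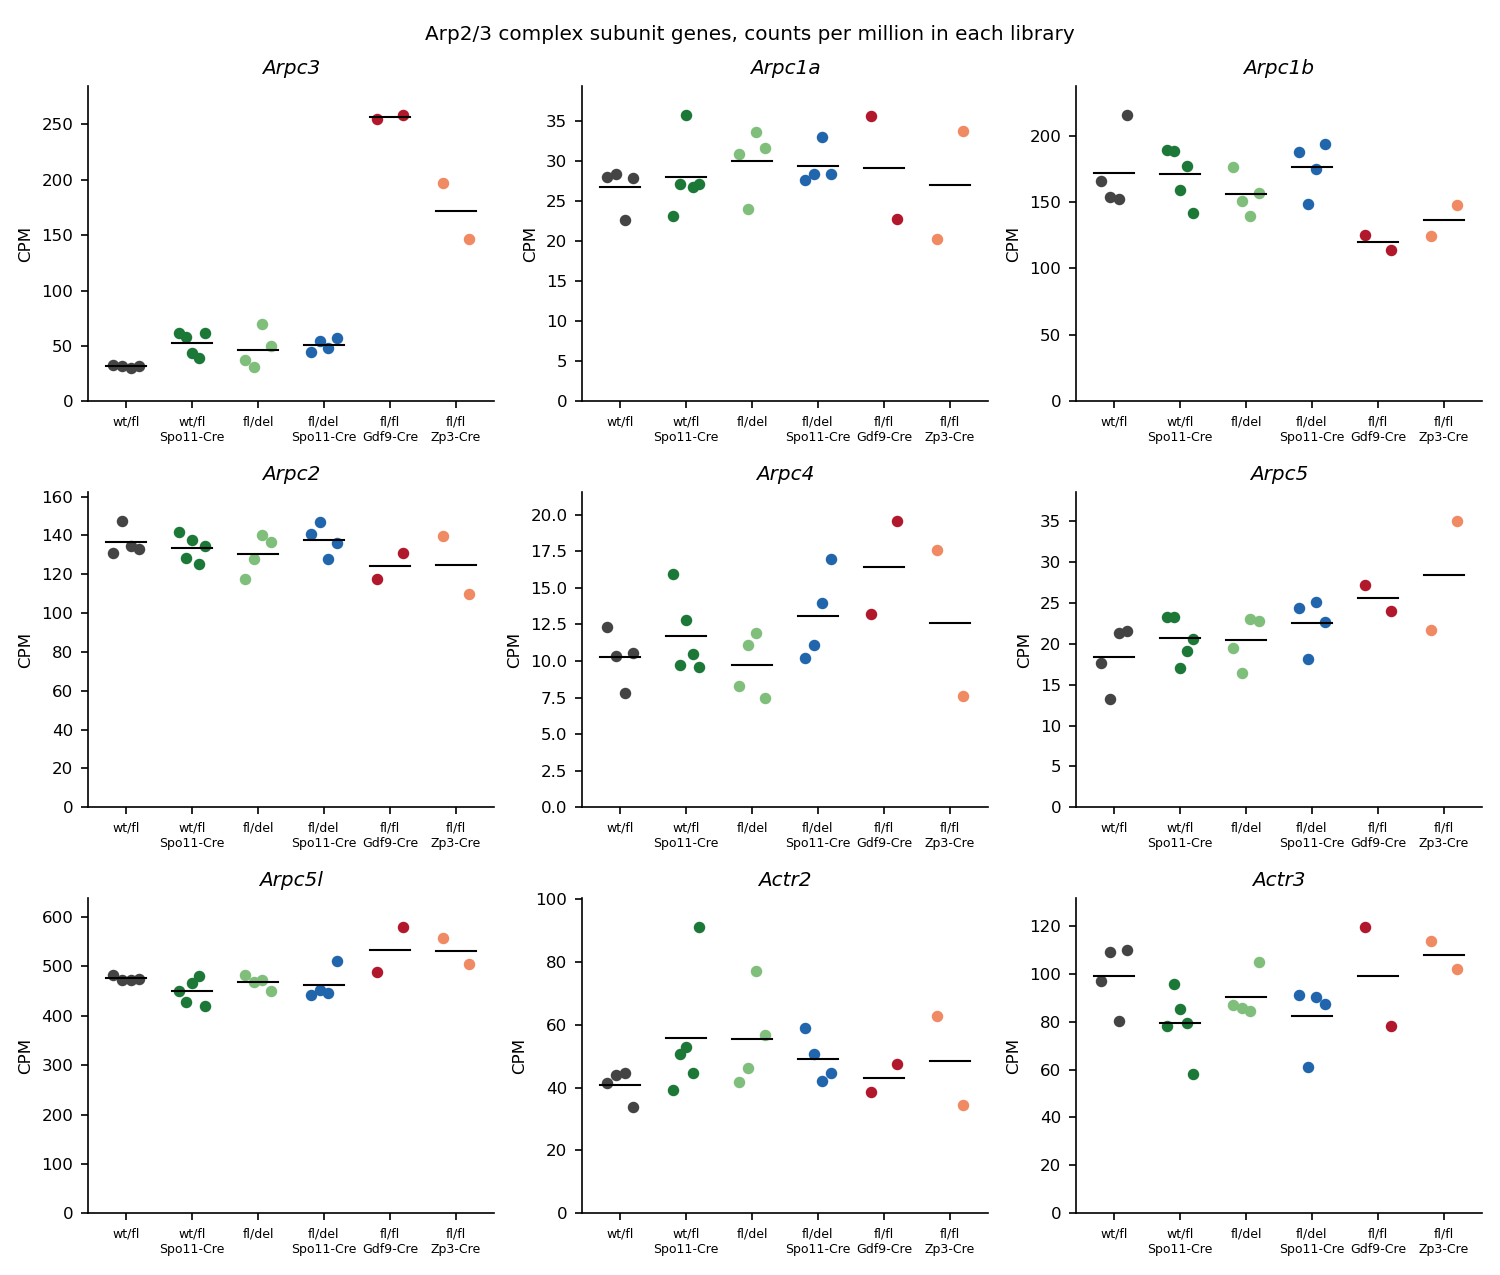
Level in CPM (vertical axes, from 0) of the 9 subunit genes in each of the 21 libraries, by genotype and Cre driver (horizontal axis); points are libraries and black lines are group means. Arpc3 reaches 146 to 259 CPM in the fl/fl libraries and 29.6 to 69.4 CPM in all others.

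The summed level of the rest of the complex did not follow that of Arpc3. Summed over the other 8 subunits, the level was 936 to 1027 CPM in wt/fl, 902 to 1039 CPM over all 17 libraries and 965 to 1057 CPM in fl/fl. Arpc5l, with a mean of 476 CPM in wt/fl, was the largest part of this sum. The sum therefore says little about subunits with few reads. The ratio of Arpc3 to Arpc2 in CPM, in which library size cancels, was 0.23 ± 0.02 (SD, n = 4) in wt/fl, 0.34 ± 0.09 (SD, n = 17) in the 17 libraries and 1.72 ± 0.41 (SD, n = 4) in fl/fl. Over all 21 libraries the coefficient of variation was 92.1% for Arpc3, and for the other members it ran from 7.2% for Arpc2 and 8.0% for Arpc5l to 28.6% for Arpc4. Arpc4 was also the subunit with the fewest reads, 62 to 245 per library.

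Each subunit passed the filter on low counts in every comparison, so all 8 subunits other than Arpc3 were tested by edgeR's quasi-likelihood test, with Benjamini-Hochberg adjustment over all genes and a threshold of 0.05. Between wt/fl Spo11-Cre and wt/fl, 0 of the 8 passed the test, where 2.19% of all genes did, with 2 of the 8 at an unadjusted p under 0.05 and 0 passing with DESeq2. Between fl/del and wt/fl 0 of 8 passed, beside 0.0223% of all genes, and 1 had an unadjusted p under 0.05. In the comparison of fl/del Spo11-Cre to wt/fl the count was again 0 of 8, beside 0.197% of all genes and 1 at an unadjusted p under 0.05. Against wt/fl Spo11-Cre and against fl/del, oocytes of fl/del Spo11-Cre likewise had 0 of 8 called, beside 0.0357% and 0.241% of all genes, and 0 of 8 reached an unadjusted p under 0.05. The interaction between Spo11-Cre and the del allele was called for 0 of 8 subunits and 0.103% of all genes, with 1 at an unadjusted p under 0.05. DESeq2 called 0 of 8 in these comparisons too.

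Among the subunits that form the start of the new filament, Actr2 (ENSMUSG00000020152) was at 41.3, 44.0, 44.7 and 33.7 CPM in wt/fl and at 39.3, 50.5, 52.8, 44.7 and 91.1 CPM in wt/fl Spo11-Cre. The groups overlapped, and 1 library of wt/fl Spo11-Cre stood far above the rest. The fitted difference was 0.48 ± 0.16 (SE) on the log2 scale, with an adjusted p of 0.115 by edgeR. In fl/del the levels were 41.8, 46.3, 76.9 and 56.7 CPM, with a difference from wt/fl of 0.44 ± 0.17, and again 1 library was well above the others. The library with the highest Actr2 in fl/del, replicate 3, was also the one with the highest Arpc3. In fl/del Spo11-Cre Actr2 was at 58.9, 50.8, 42.2 and 44.7 CPM, and in the fl/fl libraries at 38.7, 47.5, 62.7 and 34.4 CPM, overlapping wt/fl.

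Actr3 (ENSMUSG00000026341), which pairs with Actr2, was at 96.8, 109, 80.2 and 110 CPM in wt/fl and at 78.1, 95.7, 85.2, 79.4 and 58.0 CPM in wt/fl Spo11-Cre. Its fitted difference was -0.30 ± 0.12 (SE) on the log2 scale, with an adjusted p of 0.194 by edgeR, opposite in sign to the difference of Actr2. In fl/del Spo11-Cre it was at 91.1, 61.1, 90.3 and 87.3 CPM, with a difference from wt/fl of -0.27 ± 0.12 that did not pass the test. In fl/fl Actr3 ranged from 78.3 to 120 CPM, against 58.0 to 110 CPM in the 17 libraries. Reads of Actr3 are shared in sequence with the processed pseudogene Gm8822, which is 98.8% identical over 2348 bases and was counted at 4.02 to 12.6 CPM.

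In the core of the complex, Arpc2 (ENSMUSG00000006304) varied least over the 21 libraries. It was at 131, 148, 135 and 133 CPM in wt/fl and at 118 to 147 CPM across the other 3 groups of the 17 libraries. In fl/fl it was at 118, 131, 140 and 110 CPM, with a fitted difference from wt/fl of -0.22 ± 0.11 (SE). Arpc4 (ENSMUSG00000079426), the partner of Arpc2, was at 12.3, 10.4, 7.8 and 10.5 CPM in wt/fl and between 7.5 and 16.95 CPM in the other 3 groups of the 17 libraries, which all overlapped wt/fl. In fl/fl Arpc4 was at 13.2 and 19.6 CPM with Gdf9-Cre, both above every wt/fl and fl/del library. The highest libraries of wt/fl Spo11-Cre and fl/del Spo11-Cre, at 15.96 and 16.95 CPM, were above the lower of them. With Zp3-Cre it was at 17.6 and 7.6 CPM, so that fl/fl with both drivers overlapped wt/fl.

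Arpc1b (ENSMUSG00000029622), the more abundant of the WD40-repeat subunits, was lower in fl/fl than in wt/fl. It was at 166, 154, 152 and 216 CPM in wt/fl, and at 125, 114, 125 and 148 CPM in fl/fl, so that the groups did not overlap. The fitted difference was -0.52 ± 0.12 (SE) on the log2 scale against wt/fl and -0.54 ± 0.12 against fl/del Spo11-Cre, whose libraries were at 188, 149, 175 and 193 CPM. Arpc1b was 1 of 8 subunits past the threshold in each of these 2 comparisons, beside 2.79% of all genes for fl/fl against wt/fl and 2.90% for fl/fl against fl/del Spo11-Cre. An unadjusted p under 0.05 was reached by 3 of 8 subunits against wt/fl, beside 3312 of all 23225 genes tested. Against fl/del Spo11-Cre it was reached by 2 of 8, beside 3254 genes. These counts are a description, since Arpc3 may have been chosen from the same contrasts. The call against wt/fl was lost without wt/fl replicate 4 (216 CPM), without fl/fl Zp3-Cre replicate 1, or when only the compared groups were fitted. Over the 17 libraries Arpc1b ran down to 139 CPM, and so overlapped the highest fl/fl library.

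Arpc1b lies on chromosome 5 from 145114215 to 145130705, and 931 of its 5115 exonic bases overlap exons of Pdap1 on the other strand. The library kit does not mark strand, so in this stretch reads of the 2 genes cannot be told apart. Pdap1 was at 20.1 to 35.1 CPM in wt/fl and at 17.5 to 43.1 CPM in fl/fl, a fitted difference of 0.19 ± 0.18 (SE). The pseudogene Gm5637, 96.5% identical to Arpc1b over 1131 bases, was counted at 0.87 to 4.08 CPM over all libraries.

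Arpc1a (ENSMUSG00000029621), next to Arpc1b on the chromosome, was at 27.9, 28.4, 22.6 and 27.9 CPM in wt/fl and at 35.6, 22.7, 20.3 and 33.7 CPM in fl/fl. The fl/fl libraries fell on both sides of the wt/fl range, and the fitted difference was -0.01 ± 0.18 (SE). Between the fl/fl drivers, 0 of the 8 subunits passed the test, beside 0.891% of all genes called. An unadjusted p under 0.05 was reached by 0 of the 8, beside 1659 of all 23225 genes tested. DESeq2 called 0 of 8 there as well. The fitted differences of the 8 subunits between Gdf9-Cre and Zp3-Cre ran from -0.16 to 0.43 on the log2 scale, and that of Arpc3 was 0.62 ± 0.21 (SE).

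Arpc5 (ENSMUSG00000008475) was at 17.6, 13.2, 21.3 and 21.6 CPM in wt/fl and at 27.2, 24.0, 21.7 and 35.0 CPM in fl/fl. All 4 fl/fl libraries were above wt/fl, the closest by under 1 CPM, with a fitted difference of 0.46 ± 0.19 (SE) that did not pass the test. Arpc5l (ENSMUSG00000026755) was the subunit with the most reads, at 482, 473, 473 and 475 CPM in wt/fl and 488, 580, 556 and 504 CPM in fl/fl. Its fl/fl libraries were also all above wt/fl, but by a fitted difference of 0.07 ± 0.09 only, and the highest of the 17 other libraries, at 510 CPM, lay among them. Arpc5l and Arpc5 thus were above wt/fl in fl/fl without passing the test, and their fl/fl ranges overlapped those of the 17 libraries.

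**Figure D2:**
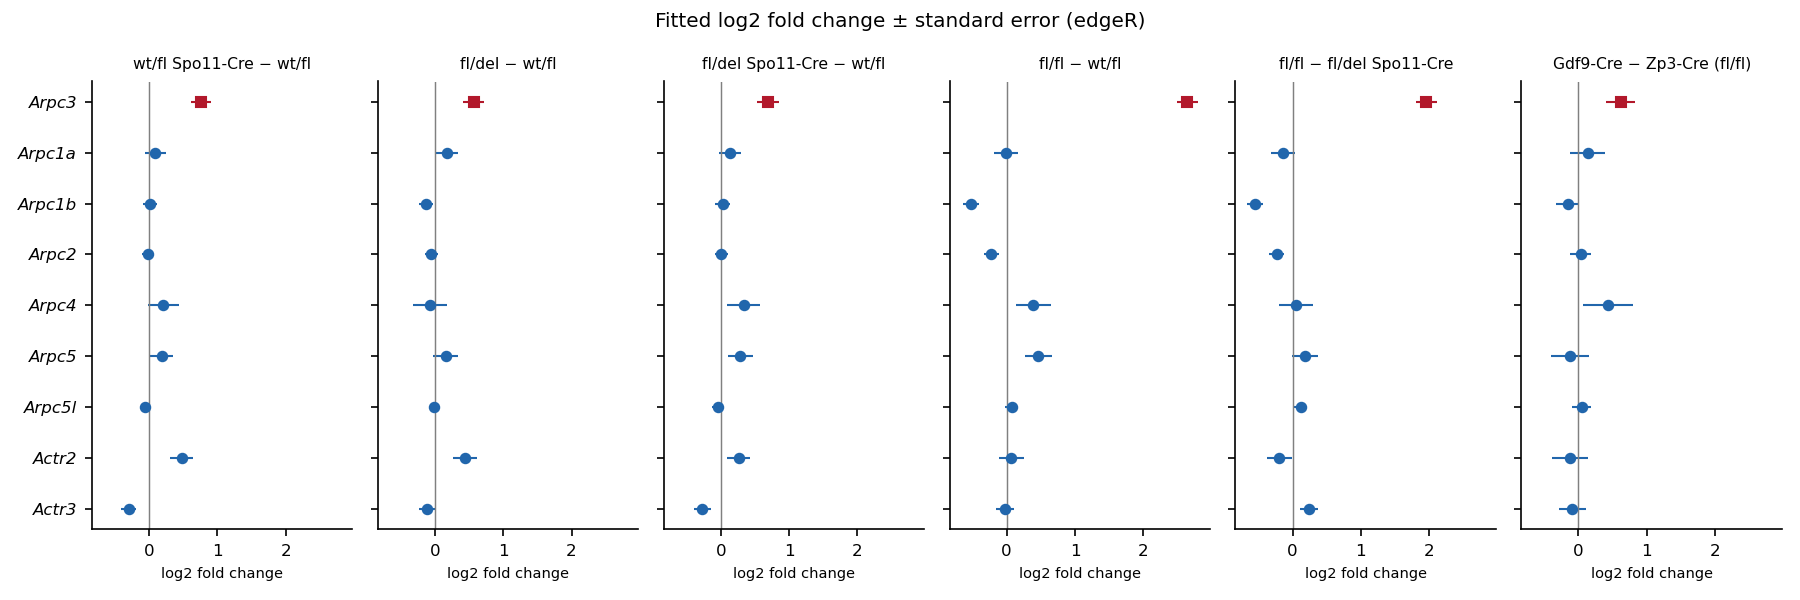
Fitted log2 fold change (horizontal axis, shared by all panels) of each subunit in 6 comparisons, with bars of 1 standard error from edgeR; the red squares are Arpc3, which is a description, and the blue circles the 8 other subunits. Arpc3 lies at 2.64 in fl/fl against wt/fl, where the other subunits lie between -0.52 and 0.46.

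In fl/fl against wt/fl the median fitted difference of the 8 other subunits was 0.03 on the log2 scale, beside -0.03 over all genes tested, and 4 of the 8 were positive. For wt/fl Spo11-Cre compared with wt/fl the median was 0.05, beside 0.03, with 5 of 8 positive. For fl/del Spo11-Cre compared with wt/fl the median was 0.08, beside 0.01, with 6 of 8 positive. Arpc3 and Actr2 both had a negative interaction term, -0.64 ± 0.22 and -0.66 ± 0.24 (SE), and for Actr2 the adjusted p was 0.284 by edgeR.

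Levels of different subunits were compared per length, in the deposited transcripts per 1000000 (TPM), which divide by the union of all annotated exons. In wt/fl the order was Arpc5l at 260 TPM ± 3.60 (SD, n = 4), Arpc2 at 165 ± 10.5, Arpc1b at 82.7 ± 15.0, Actr3 at 52.5 ± 8.0, Arpc3 at 28.0 ± 1.43, Arpc1a at 25.6 ± 2.9, Arpc5 at 19.9 ± 4.2, Actr2 at 19.3 ± 2.3 and Arpc4 at 10.9 ± 2.0. The first 4 did not overlap between neighbours, whereas the ranges of Arpc3 and Arpc1a overlapped, as did those of Arpc1a and Arpc5 and of Arpc5 and Actr2. The 9 transcripts were thus far from equal, and Arpc5l alone made up 39.1% of their summed TPM in wt/fl. Arpc3 took the fifth place in all wt/fl libraries, with 4.23% ± 0.15 (SD, n = 4) of the sum, and rank 2 or 3 in fl/fl, with 22.5% ± 4.46 (SD, n = 4). In fl/fl it averaged 189 TPM ± 44.9 (SD, n = 4), above Arpc2 at 149 ± 12.0 and below Arpc5l at 288 ± 13.6, and the ranges of Arpc3 and Arpc2 overlapped there.

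The union of exons counts retained introns and alternative ends, and for Arpc3 it holds 2762 bases against 899 in the coding mRNA. When each TPM was rescaled to the length of the main coding mRNA, a choice made after seeing the data, Arpc1b at 303 and Arpc2 at 233 changed places in wt/fl, Actr2 at 27.6 passed Arpc5 at 23.6, and Arpc5l made up 51.5% of the sum. Arpc3 kept the fifth place in wt/fl, at 86.1, and came second in fl/fl, at 580, behind Arpc5l at 967.

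**Figure D3:**
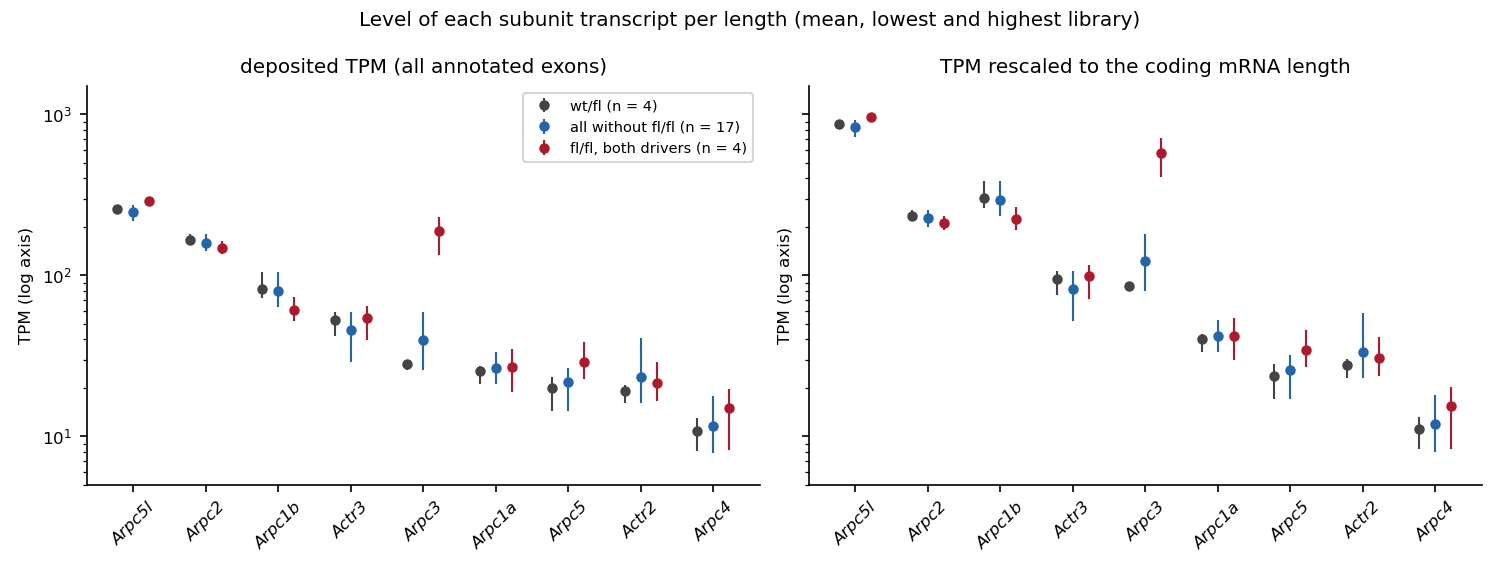
Level of each subunit transcript per length on a log axis, as the deposited TPM over all annotated exons and as TPM rescaled to the coding mRNA length; points are means and bars run from the lowest to the highest library of wt/fl (n = 4), of all libraries without fl/fl (n = 17) and of fl/fl (n = 4). Arpc3 is at 28.0 TPM in wt/fl and 189 TPM in fl/fl, and Arpc1b at 82.7 and 61.1 TPM, Arpc5 at 19.9 and 29.0 TPM and Arpc4 at 10.9 and 15.1 TPM.

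In the pairs of alternative forms compared here, Arpc1b and Arpc5l made up most of the TPM. Shares of alternative forms outside these pairs were not computed. Arpc1a and Arpc1b are 74.5% identical over 1098 aligned coding bases, and Arpc5 and Arpc5l 71.3% identical over 450 bases, so that their reads can be told apart in most places. Arpc1a made up 23.8% ± 2.76 (SD, n = 4) of the TPM of Arpc1a and Arpc1b in wt/fl, with 25.1%, 26.8%, 22.8% and 20.5% in the single libraries. With Gdf9-Cre the share was 36.1% and 28.5%, and in the Zp3-Cre libraries 24.5% and 31.2%. Arpc5l made up 92.9% ± 1.42 (SD, n = 4) of the TPM of Arpc5 and Arpc5l in wt/fl and no less than 87.9% in any library.

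None of the 10 comparisons of a share with wt/fl passed the exact permutation test, which could not have gone below 0.0667 for either fl/fl driver (2 against 4 libraries). For Arpc1a the difference was 8.49 percentage points with Gdf9-Cre, where both libraries were above all 4 of wt/fl (exact permutation p = 0.0667, adjusted p = 0.476 over 10 comparisons). In fl/del it was 3.95 points (exact permutation p = 0.143, adjusted p = 0.476) and in the other 3 groups 0.91 to 4.02 points. For Arpc5l the differences ran from -2.51 to -0.85 points, with adjusted p from 0.476 to 0.500 by the same two-sided test. With the coding mRNA length in place of the exon union, Arpc1a made up 11.8% ± 1.58 and Arpc5l 97.4% ± 0.55 of their pairs in wt/fl (SD, n = 4).

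**Figure D4:**
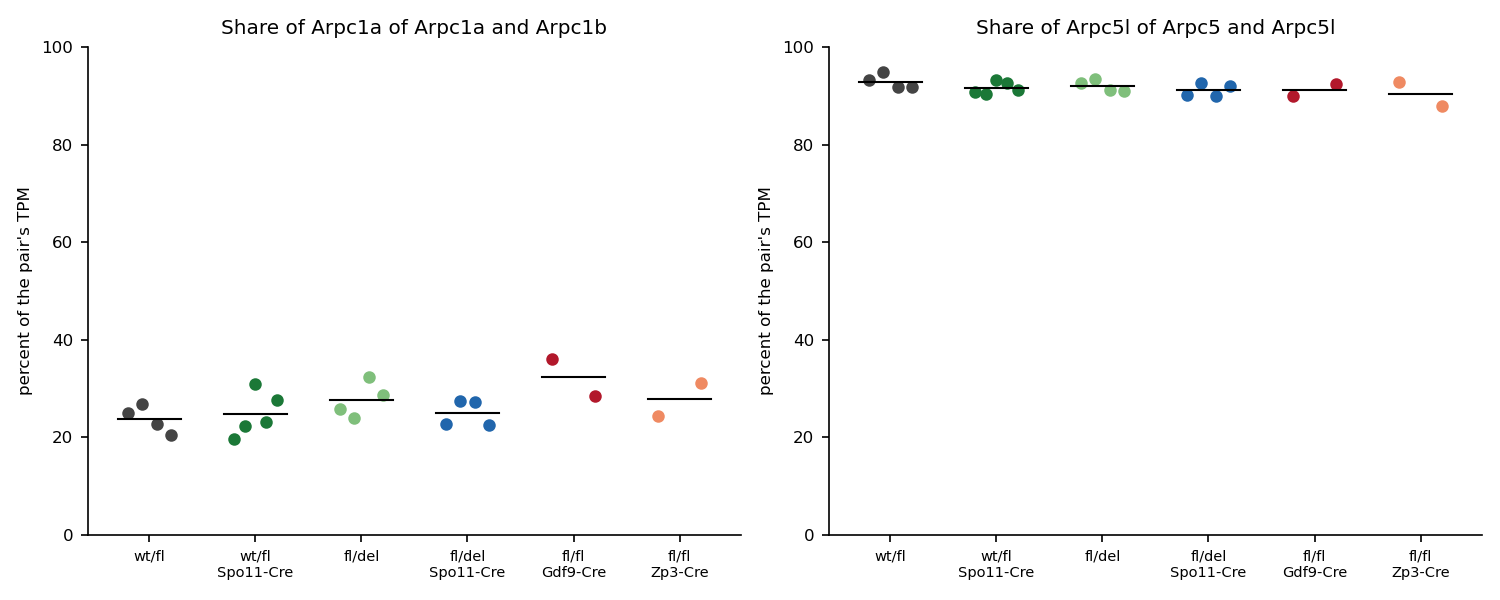
Share of Arpc1a in the TPM of Arpc1a and Arpc1b, and of Arpc5l in that of Arpc5 and Arpc5l, in percent (vertical axes, 0 to 100), for each library by group; black lines are group means. Arpc1a ranges from 19.6% to 36.1% and Arpc5l from 87.9% to 94.8%, and both Gdf9-Cre libraries lie above all 4 of wt/fl for Arpc1a.

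The proteins that switch the complex on or off are encoded by genes outside it. Of 27 listed activators (the WASP family, the WAVE and WASH complexes, WIP proteins, cortactin and the GTPases Cdc42 and Rac1), 23 were tested. None passed the test in any of the 5 comparisons between pairs of groups of the 17 libraries, by edgeR. At an unadjusted p under 0.05 there were 7 in wt/fl Spo11-Cre compared with wt/fl, beside 3358 of all 22383 genes tested. There were 2 in each of the others, beside 1591 to 2334 of all genes. DESeq2 called 1 activator in wt/fl Spo11-Cre and 1 in fl/del Spo11-Cre compared with wt/fl. In fl/fl against wt/fl 2 of 23 rose and 0 fell, beside 2.79% of all genes called. Abi1, a WAVE complex subunit, was at 19.3, 32.3, 21.7 and 20.5 CPM in wt/fl and at 38.6, 31.7, 71.7 and 30.5 CPM in fl/fl, a difference of 0.76 ± 0.19 (SE, edgeR adjusted p = 0.0124). The call was lost under 6 of 16 alternatives: without fl/fl Zp3-Cre replicate 1, at an adjusted p of 0.403, without fl/fl Gdf9-Cre replicate 1, without wt/fl replicate 1 or 4, with only the compared groups fitted and with libraries of the same name prefix summed. Wasl, which encodes N-WASP, rose by 0.37 ± 0.11 (SE, edgeR adjusted p = 0.0491), from 100 to 115 CPM in wt/fl to 119 to 160 CPM in fl/fl, and lost the call under 12 of 16 alternatives, among them the omission of 7 of the 8 libraries compared.

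Against fl/del Spo11-Cre, Abi1 rose in fl/fl by 0.94 ± 0.19 (SE, edgeR adjusted p = 0.00104), as 1 of 23 activators beside 2.90% of all genes. This call too was lost without fl/fl Zp3-Cre replicate 1, at an adjusted p of 0.103. Between the fl/fl drivers 1 of 23 was called, beside 0.891% of all genes. Wasf2, which encodes the WAVE2 subunit of the WAVE complex, was at 125 and 157 CPM with Gdf9-Cre and at 86.7 and 43.6 CPM with Zp3-Cre, a difference of 1.16 ± 0.19 (SE, edgeR adjusted p = 0.00011). With these 4 libraries fitted alone, the adjusted p of Wasf2 was 0.27.

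Of 10 listed inhibitors (Arpin, Pick1, the GMF proteins and the coronins), 9 were tested, and Coro1b fell in wt/fl Spo11-Cre as 1 of 9 beside 2.19% of all genes. Coro1b, a coronin that acts on branch junctions, was at 44.9, 64.6, 49.4 and 64.1 CPM in wt/fl and at 39.8, 32.4, 31.6, 37.8 and 39.0 CPM in wt/fl Spo11-Cre. The groups did not overlap, the difference was -0.60 ± 0.13 (SE, edgeR adjusted p = 0.00465), and the call held under all 18 alternatives. In the other comparisons 0 of 9 inhibitors passed the test by edgeR. In each, 0 or 1 had an unadjusted p under 0.05, beside 1591 to 3312 of all genes tested. DESeq2 called 1 of 9 in fl/del Spo11-Cre compared with wt/fl and 0 in the rest.

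Of 12 other actin-related proteins, which share the actin fold with Actr2 and Actr3, 8 were tested. The list includes subunits of dynactin and of chromatin complexes, and was kept apart from the subunits considered here. In wt/fl Spo11-Cre compared with wt/fl 1 of 8 was called, beside 2.19% of all genes, and 2 of 8 by DESeq2. An unadjusted p under 0.05 was reached by 4 of 8, beside 3358 of all 22383 genes tested. The median log2 fold change of the 8 was -0.32, compared with 0.03 over all genes, with 2 of 8 above 0. The gene called by edgeR had the opposite sign to this median. Actr10, a dynactin subunit, rose in wt/fl Spo11-Cre by 0.43 ± 0.11 (SE, edgeR adjusted p = 0.0287), from 49.4 to 61.1 CPM in wt/fl to 59.7 to 83.1 CPM, with overlapping ranges. The Actr10 call was lost under 8 of 18 alternatives, among them a block on the replicate number and the omission of wt/fl replicate 1 or 2 or of wt/fl Spo11-Cre replicate 3, 4 or 5. In fl/fl 1 of 8 was called against wt/fl, beside 2.79% of all genes, and 1 of 8 against fl/del Spo11-Cre, beside 2.90%. In the other 6 comparisons 0 of 8 were called by edgeR, and 0 or 1 by DESeq2 in each. An unadjusted p under 0.05 was reached by 0 to 2 of 8, beside 1591 to 2334 of all genes tested. Actr1a, the dynactin filament subunit, fell in fl/fl against wt/fl by 0.66 ± 0.13 on the log2 scale (SE, edgeR adjusted p = 0.000543), from 89.6, 111, 79.1 and 108 CPM to 58.3, 50.5, 70.8 and 83.9 CPM. Against fl/del Spo11-Cre it fell by 0.51 ± 0.13 (SE, edgeR adjusted p = 0.0117), a call lost under 6 of 16 alternatives, among them the omission of fl/del Spo11-Cre replicate 1 or 3, fl/fl Gdf9-Cre replicate 2 or fl/fl Zp3-Cre replicate 1.

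The nearest coding genes on either side of Arpc3 were examined because of the size of the difference at Arpc3, after its values were known. Gpn3 ends 8975 bases before Arpc3 and was at 7.21 to 20.8 CPM in wt/fl and 8.79 to 13.5 CPM in fl/fl, and Fam216a beyond it was at 7.77 to 12.0 and 8.36 to 13.2 CPM. Anapc7 begins 7508 bases after Arpc3 and was at 63.2 to 88.6 CPM in wt/fl and 58.2 to 89.8 CPM in fl/fl. These 3 genes overlapped between the groups, with fitted differences of -0.17 ± 0.29, -0.05 ± 0.28 and -0.12 ± 0.14 (SE). Atp2a2, which encodes the calcium pump SERCA2 and lies 39328 bases from Arpc3, was at 98.1 to 115 CPM in wt/fl and 106 to 240 CPM in fl/fl, a difference of 0.44 ± 0.12 (SE, edgeR adjusted p = 0.0248). In that comparison 2.79% of all genes were called. The Gdf9-Cre libraries of Atp2a2, at 106 and 140 CPM, overlapped wt/fl, and the Zp3-Cre libraries, at 160 and 240 CPM, were above it. Gdf9-Cre differed from Zp3-Cre by -0.66 ± 0.17 at Atp2a2 (SE, edgeR adjusted p = 0.0328), the opposite order to that at Arpc3. Between the drivers 0.891% of all genes were called, with the spread shared with the other groups. With only the compared groups fitted, the number of all genes called there fell from 207 to 7. Gm42829, annotated within an intron of Arpc3 on the same strand, reached at most 0.28 CPM in any library, and no near-identical copy of Arpc3 (90% identity over 150 bases) was found among the annotated transcripts.

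Over all 21 libraries, the genes whose log2(CPM + 1) followed that of Arpc3 most closely were ranked by Pearson's r among 9478 genes with a mean of at least 5 CPM. These were U2af1, a splicing factor subunit (r = 0.92), Mrpl32, a mitochondrial ribosomal protein (0.88), Ube2b, a ubiquitin-conjugating enzyme (0.87), Sub1, a transcription coactivator (0.87), and mt-Atp6, a mitochondrially encoded ATP synthase subunit (0.87). In each of them all 4 fl/fl libraries were above all 17 others, and over these 17 libraries alone r was 0.73, 0.45, 0.46, 0.57 and 0.25. The likeness to Arpc3 was thus largely the difference between the 2 sets of libraries. U2af1 ran from 44.5 to 73.4 CPM in the 17 libraries and from 83.6 to 106 CPM in fl/fl, and mt-Atp6 from 2.37 to 6.21 CPM and from 10.6 to 18.2 CPM. The mean of mt-Atp6 was 3.92 CPM in the 17 libraries and 15.4 CPM in fl/fl. It thus passed the filter of 5 CPM only through the fl/fl libraries, and its place in the ranking follows in part from that filter. None of the other subunits was among the closest genes: r with Arpc3 ran from -0.68 for Arpc1b to 0.60 for Arpc5 over the 21 libraries, and from -0.43 for Actr3 and Arpc5l to 0.58 for Actr2 over the 17.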

How the data were processed

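Poly(A) RNA of mouse oocytes was amplified with the SMART-seq v4 kit, which does not mark strand, and sequenced in 21 libraries. The authors used fastp for trimming, HISAT2 2.2.1 for alignment to GRCm38 and featureCounts 2.0.3 (Subread) for gene counts, and deposited the raw counts and TPM. A further table pair counts Kif11 over exon 22 and served as an alternative, and the tables for exon 1 were not used. From the deposited counts, CPM was computed on library totals (precision is that of the counts, 62 to 8611 reads per member and library). Genes detected in 3 or more libraries were tested with edgeR 4.0.16 (quasi-likelihood, TMM), with Benjamini-Hochberg adjustment over all genes. The 17 libraries of the Spo11-Cre background were fitted together, and all 21 for the fl/fl comparisons. DESeq2 1.42.0 was an alternative, and both tools were tested on simulated data. For shares, exact permutation tests (two-sided) were used. Identifiers were matched to symbols, exon lengths and transcripts of GENCODE M21, copies were searched with BLAST+ 2.17.0, and promoters came from RefSeq (GRCm38.p6). Named genes were the 9 members, listed regulators called in at least 1 comparison, and the 5 genes most correlated with Arpc3. The members and lists were chosen with earlier results of these data known.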

Additional observations from a re-analysis of the deposited data

Results flagged for a closer look

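Libraries that stood apart from their own group were sought in the CPM of the 8 subunits other than Arpc3 and in both paralog shares, in 40 groups of 4 or 5 libraries, with Dixon's 95% critical value, which chance passes in about 1 of 20 groups. Single values passed in 6 of them. Actr2 was at 91.1 CPM in wt/fl Spo11-Cre replicate 5, with the other 4 libraries at 39.3 to 52.8 CPM. Arpc1a was at 22.6 CPM in wt/fl replicate 3, with the others at 27.9 to 28.4 CPM, and at 33.0 CPM in fl/del Spo11-Cre replicate 3, with the others at 27.6 to 28.4 CPM. Arpc5l was at 510.04 CPM in fl/del Spo11-Cre replicate 4, with the others at 442 to 452 CPM. Actr3 was at 105 CPM in fl/del replicate 4, with the others at 84.5 to 86.7 CPM, and at 61.1 CPM in fl/del Spo11-Cre replicate 2, with the others at 87.3 to 91.1 CPM.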

How the results depend on the processing

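The counts of called subunits other than Arpc3 were unchanged under 75 of 77 alternatives that kept all libraries and under 76 of 79 that left one out. With no filter on low counts 1 subunit, Actr2, was called in wt/fl Spo11-Cre against wt/fl, and with only the compared groups fitted 0 were called in fl/fl against wt/fl. Leaving out one library gave 0 to 1 called in each of these 2 comparisons (Actr2 was called without wt/fl Spo11-Cre replicate 1, and Arpc1b was lost without wt/fl replicate 4 or fl/fl Zp3-Cre replicate 1), 1 in fl/fl against fl/del Spo11-Cre, and 0 in the others. The cause was not tested. The level of Arpc3 in percent of wt/fl was 775% in Gdf9-Cre with TMM-normalized CPM and 802% with the authors' TPM, where the reported value was 815%. With one library left out it ran from 160% to 178% in wt/fl Spo11-Cre, 124% to 165% in fl/del, 156% to 168% in fl/del Spo11-Cre, 799% to 828% in Gdf9-Cre and 464% to 626% in Zp3-Cre. The share of Arpc1a with one library left out differed from wt/fl by -0.65 to 2.19 percentage points in wt/fl Spo11-Cre, turning negative without wt/fl replicate 4 (-0.20) or without wt/fl Spo11-Cre replicate 3 (-0.65), by 2.38 to 5.17 in fl/del, 0.10 to 2.22 in fl/del Spo11-Cre, 4.65 to 12.3 in Gdf9-Cre and 0.66 to 7.39 in Zp3-Cre. That of Arpc5l differed by -1.67 to -0.64, -1.33 to -0.22, -2.20 to -1.08, -2.84 to -0.47 and -4.98 to -0.05 in the same order. Where 1 fl/fl library of a driver was left out, the fits took its spread from the other groups.

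The replicate numbers of the labels do not pair the libraries: over 24 pairs with the same number, deviations from the group means correlated by -0.05 to 0.05. With the replicate block the counts of called subunits were 1 in each of fl/fl against wt/fl and fl/fl against fl/del Spo11-Cre, and 0 in the other comparisons, while the number of all genes called moved from 5 to 96 in fl/del against wt/fl, from 44 to 230 in fl/del Spo11-Cre against wt/fl, from 8 to 29 in fl/del Spo11-Cre against wt/fl Spo11-Cre, from 54 to 143 in fl/del Spo11-Cre against fl/del and from 23 to 96 for the interaction. Over all genes, other settings moved the counts by more than 1.5 times. DESeq2 called 931 in wt/fl Spo11-Cre against wt/fl (reported 491), 25, 166, 14, 90 and 95 in the next 5 comparisons, and 1109, 1065 and 381 for fl/fl (reported 647, 673 and 207). With no filter the counts were 742, 80, 185, 39, 134 and 138 in the 17-library comparisons. Fitting all 21 libraries gave 252 in wt/fl Spo11-Cre against wt/fl, 5 in fl/del Spo11-Cre against wt/fl Spo11-Cre and 4 for the interaction. With filterByExpr 2, 29, 4 and 2 were called in fl/del and fl/del Spo11-Cre against wt/fl, fl/del Spo11-Cre against wt/fl Spo11-Cre and the interaction. The exon 22 table gave 83 in fl/del Spo11-Cre against wt/fl and 42 for the interaction, and summing libraries with the same name prefix gave 11 for the interaction and 233 and 299 for fl/fl. Only the compared groups gave 238, 323 and 7 for fl/fl. Leaving out one library gave 179 to 575, 1 to 18, 30 to 71, 3 to 12, 37 to 60, 4 to 60, 303 to 1353, 416 to 1263 and 127 to 398 in the order of the comparisons.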
